A study of Mus musculus with 4 samples.

Results

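Quinone and carbonyl reductases were examined in mouse kidney epithelial cells that lack fumarate hydratase (FH), the tricarboxylic acid cycle enzyme that turns fumarate into malate. The genes were chosen by symbol from the authors' table of named probe sets: Nqo1, Cbr1, Cbr3, Akr1c18 and any gene whose symbol starts with Akr1. The choice gave 5 genes of the 1613 named in that table and of 16752 in the deposited values, with Akr1c12 as the only further Akr1 gene. Since every probe set of the table had already passed the authors' test of the same comparison, a gene of the family that did not change there could not be found, and all 5 genes had to differ. The tests below therefore describe the size and precision of each difference and are no independent evidence that these genes differ. RefSeq holds 16 mouse Akr1 genes, of which the other 14 were not analysed here.

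Expression was measured on 4 arrays. Of these, 2 held FH knockout cells (FH KO, written Fh1Δ/Δ in the study) and 2 held FH wild-type cells (FH WT, written Fh1fl/fl). Both groups carry the label Fh1fl/fl; C57BL/6, were kept in normoxia without treatment and grew in DMEM with 10% serum and 2 mM glutamine. Both are immortalised lines, and whether either is a single clone is not given in the sources used here. Genotype and cell line go together in these arrays, so every difference below is one between lines. How much of it follows from the loss of FH was not tested. The labels call the replicates biological without saying whether they were separate cultures, and the p-values reflect no more than the spread from array to array. Values are log2 expression after RMA, the authors' normalization, on which a difference of 1 is a doubling. They are comparable between arrays for a gene but not between genes, and their number limits the precision.

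Quinones and carbonyls are electrophiles that arise from diet, drugs, lipid peroxidation and steroid metabolism. NAD(P)H-dependent reductases turn them into hydroquinones and alcohols, which can be conjugated and excreted. Many of these genes are known targets of NRF2, a transcription factor that is degraded through Keap1 in unstressed cells and binds antioxidant response elements when Keap1 cysteines are modified, by fumarate among other electrophiles. The proteins here belong to unrelated folds. Nqo1 is a flavoprotein, Cbr1 and Cbr3 are short-chain dehydrogenases, and Akr1c18 and Akr1c12 are aldo-keto reductases.

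Because the 5 genes were higher together, the 250 bases before each RefSeq start (GRCm38.p6) are shown, 5′ to 3′ on the gene's strand. Capitals mark TATAAA and GGGCGG on either strand:
Nqo1 (chr8:107403206-107403455, minus strand): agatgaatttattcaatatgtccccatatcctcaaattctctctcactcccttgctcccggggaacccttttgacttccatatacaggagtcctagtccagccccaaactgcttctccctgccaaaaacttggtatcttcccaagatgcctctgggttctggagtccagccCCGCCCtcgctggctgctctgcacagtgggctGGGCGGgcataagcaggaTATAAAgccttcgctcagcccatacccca
Cbr1 (chr16:93607587-93607836, plus strand): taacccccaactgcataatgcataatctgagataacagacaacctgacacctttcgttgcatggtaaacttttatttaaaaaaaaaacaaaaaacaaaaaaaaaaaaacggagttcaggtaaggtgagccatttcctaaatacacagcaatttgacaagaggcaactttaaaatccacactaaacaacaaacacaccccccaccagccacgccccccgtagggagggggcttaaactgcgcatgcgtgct
Cbr3 (chr16:93682969-93683218, plus strand): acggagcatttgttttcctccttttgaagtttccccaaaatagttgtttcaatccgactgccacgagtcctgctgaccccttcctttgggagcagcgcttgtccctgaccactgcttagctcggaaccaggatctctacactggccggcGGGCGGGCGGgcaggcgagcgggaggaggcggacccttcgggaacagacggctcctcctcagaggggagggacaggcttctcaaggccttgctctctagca
Akr1c18 (chr13:4150647-4150896, minus strand): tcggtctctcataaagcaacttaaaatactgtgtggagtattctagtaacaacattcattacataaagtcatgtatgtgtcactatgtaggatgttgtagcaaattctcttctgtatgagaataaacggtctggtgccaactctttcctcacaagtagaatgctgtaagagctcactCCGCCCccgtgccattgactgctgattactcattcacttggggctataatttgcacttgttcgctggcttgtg
Akr1c12 (chr13:4279400-4279649, minus strand): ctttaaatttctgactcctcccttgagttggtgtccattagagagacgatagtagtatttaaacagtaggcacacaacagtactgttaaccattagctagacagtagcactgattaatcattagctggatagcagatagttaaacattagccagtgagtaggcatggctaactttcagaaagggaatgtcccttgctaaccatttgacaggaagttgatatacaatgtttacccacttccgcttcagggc

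The antioxidant response element core, searched as TGACNNNGC on both strands, had no match in any of the 5 windows, against 10.2% of the 32851 RefSeq windows of this length. The AP-1 motif TGANTCA, which can overlap that core, had none either (6.75% of all windows). These counts say only that the letters do not occur in these windows. A TATA box, TATAAA on either strand, was found in Nqo1 alone, 29 to 24 bases before the start (12.4% of all windows). GC boxes, GGGCGG on either strand, occurred in Nqo1, Cbr3 and Akr1c18 (32.7% of all windows), and those of Cbr3 overlapped each other. The neighbours Cbr1 and Cbr3 differed in base composition, with 41.6% and 59.6% G and C.

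The targeted gene was examined first. Fh1 measured 9.21 and 9.14 in FH KO cells, against 10.48 and 10.45 in FH WT cells, so the groups did not overlap (log2 fold change -1.29, standard error 0.11, adjusted p = 0.00579 from limma). A signal of Fh1 remained in FH KO cells, above the medians of those arrays (7.32 and 7.26). Which part of the gene its probes cover was not examined. Of all genes, 6.23% were higher and 3.99% lower in FH KO cells at an adjusted p under 0.05 (1044 and 668 genes, 10.2% in either direction). With each array centred on its median, 807 were higher and 1057 lower. The 5 reductase genes were all among the higher ones. Nothing is read from this count, because the table names only genes that the authors had called, in either direction. Of its 1613 named genes, 665 were higher by this fit. Replicates correlated at 0.992 in either group, across genes, which are not independent replicates. None of 5 proximal tubule, 7 fibroblast, 3 endothelium or 3 leukocyte markers has a name, so the labelled cell type could not be examined against them.

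Nqo1 reduces quinones straight to hydroquinones and so bypasses the reactive semiquinone. It had log2 values of 9.08 and 8.79 in FH KO cells, against 6.00 and 5.97 in FH WT cells. Both FH KO arrays were far above both FH WT arrays, and the lowest FH KO value stood 2.79 above the highest FH WT value, whereas replicates lay 0.29 apart in FH KO cells and 0.04 apart in FH WT cells. The log2 fold change was 2.95 (95% interval 2.60 to 3.31), a 7.75-fold difference, with an adjusted p of 0.00177 from limma. This was the 24th largest rise of all genes tested. The FH WT values of Nqo1 lay not far above the lower quartiles of their arrays (5.64 and 5.70), so its size may be less certain than the interval says.

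Cbr1 encodes the major cytosolic carbonyl reductase, which acts on quinones, prostaglandins and xenobiotic ketones. Its log2 values were 8.71 and 8.41 in FH KO cells, against 6.23 and 6.18 in FH WT cells. The FH WT arrays nearly coincided and the FH KO arrays lay 0.30 apart, with a gap of 2.18 between the groups. The log2 fold change was 2.35 (95% interval 1.99 to 2.71), or 5.10-fold (adjusted p = 0.00271 from limma).

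Cbr3 encodes its closest paralogue, whose human protein accepts a narrower range of substrates. It measured 8.43 and 8.08 in FH KO cells, against 6.77 and 6.78 in FH WT cells. The groups again did not overlap, and the FH WT arrays differed by less than 0.01. The log2 fold change was 1.48 (95% interval 1.10 to 1.86), or 2.79-fold (adjusted p = 0.00862 from limma).

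Akr1c18 encodes a hydroxysteroid dehydrogenase that inactivates progesterone in the mouse. Of the 5 genes it had the largest and the least precise difference, with log2 values of 10.29 and 9.18 in FH KO cells, against 5.84 and 5.47 in FH WT cells. The FH KO arrays lay 1.10 apart, yet the lower of them was 3.34 above the higher FH WT array. The log2 fold change was 4.08 (standard error 0.37), or 16.9-fold with a 95% interval of 8.90 to 32.1 (adjusted p = 0.00675 from limma). In FH WT cells 1 of its values, 5.47, fell below the lower quartile of its array (5.70), so the size of the difference is uncertain in a way that the interval does not cover.

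Akr1c12 encodes another aldo-keto reductase of the same gene cluster. It had 8.33 and 8.08 in FH KO cells, against 7.08 and 6.85 in FH WT cells. Here the groups were closest, with a gap of 1.00 between them and replicates 0.25 and 0.22 apart in FH KO and FH WT cells. The log2 fold change was 1.24 (95% interval 0.86 to 1.61), or 2.36-fold (adjusted p = 0.014 from limma). Without FH KO replicate 1 its adjusted p was 0.0679, and without FH WT replicate 2 it was 0.0506, with log2 fold changes of 1.11 and 1.12. The Akr1c genes resemble each other in sequence, and whether the probes of Akr1c18 and Akr1c12 also bind transcripts of other family members was not tested.

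**Figure D1:**
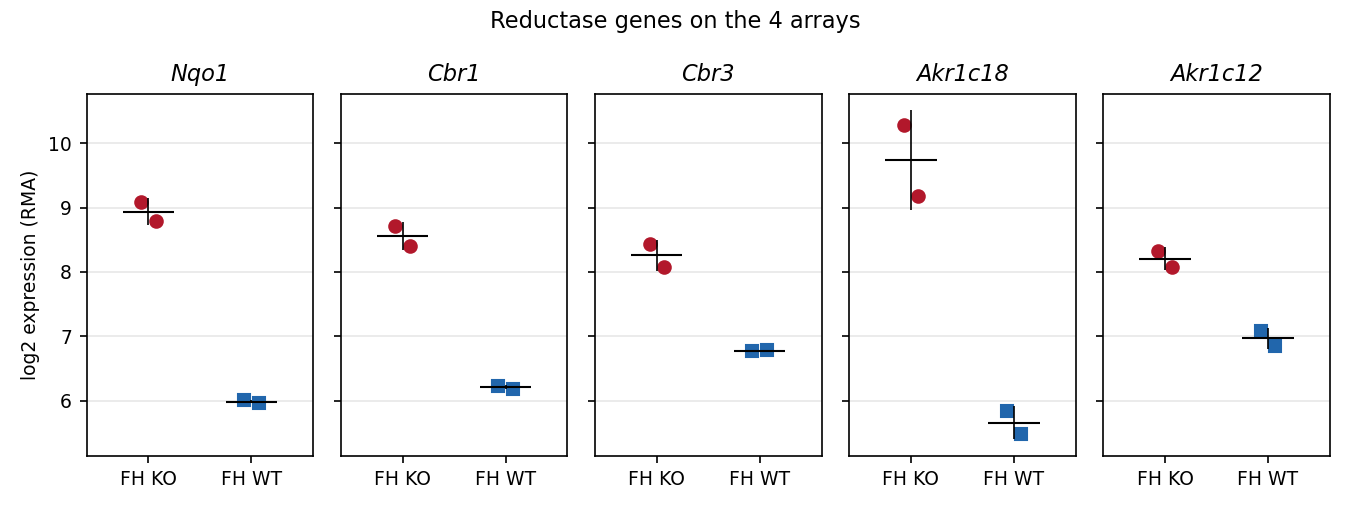
Log2 expression (RMA, vertical axis) of the 5 reductase genes in FH KO cells (red circles) and FH WT cells (blue squares), 1 point per array, with horizontal lines at the mean and vertical lines of 1 SD (n = 2). No FH KO point lies as low as an FH WT point of the same gene, and the FH KO arrays of Akr1c18 lie widest apart, at 10.29 and 9.18.

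In order of the difference between groups, Akr1c18 came first, with the limit given above on its size, then Nqo1, Cbr1, Cbr3 and Akr1c12. Over the 4 pairs of an FH KO and an FH WT array, the differences ranged from 3.34 to 4.81 for Akr1c18, from 2.79 to 3.12 for Nqo1 and from 2.18 to 2.52 for Cbr1. These ranges overlapped neither each other nor those of the remaining genes. The ranges of Cbr3 (1.30 to 1.66) and Akr1c12 (1.00 to 1.48) overlapped, and so did their intervals (1.10 to 1.86 and 0.86 to 1.61). The order of genes with overlapping intervals was not tested. Both FH KO arrays stood above both FH WT arrays in 25.6% of all genes. All 5 reductase genes were higher on FH KO replicate 1 than on replicate 2, by between 0.25 and 1.10, which was the case for 49.2% of all genes and for 68.7% of the 665 named genes that were higher in FH KO cells.

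**Figure D2:**
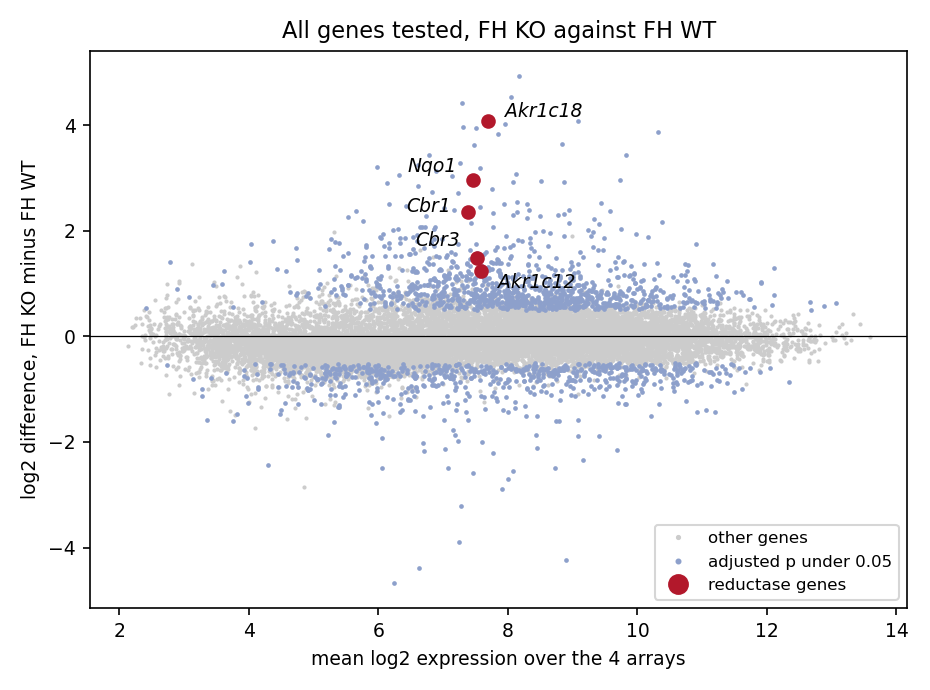
Log2 difference of FH KO minus FH WT (vertical axis) against the mean log2 expression over the 4 arrays (horizontal axis) for 16752 genes, with genes at an adjusted p under 0.05 in blue and the 5 reductase genes in red. The reductase genes have mean values between 7.38 and 7.70 and differences between 1.24 and 4.08.

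Cbr1 and Cbr3 lie next to each other, and the Akr1c genes share a cluster. RefSeq lists no protein-coding gene that starts between Cbr1 and Cbr3, and between Akr1c18 and Akr1c12 it lists Akr1c13 and Akr1c19. Among the deposited probe sets no other one stood between the members of either pair, in probe set order. Probe sets of the array that are missing from the deposited values were not examined. Members of a pair changed by unequal amounts. The log2 value of Cbr1 minus that of Cbr3 was 0.28 and 0.33 on the FH KO arrays, against -0.54 and -0.60 on the FH WT arrays, a shift of 0.87 that was nearly the same on every array of a group. Akr1c18 minus Akr1c12 was 1.96 and 1.11 on the FH KO arrays and -1.24 and -1.38 on the FH WT arrays, a shift of 2.84. For both pairs the exact two-sided permutation test gave p = 0.333, the smallest that 2 arrays against 2 allow.

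Nearly all probe sets next to these genes in probe set order had smaller differences. How far these probe sets lie from the genes on the chromosome was not examined, so the order need not mean closeness. Of the 30 probe sets nearest to Cbr1 and Cbr3 in probe set order, 15 on each side, none had a difference of 1 or more, and their median was -0.11 (range -0.57 to 0.70). The 30 around Nqo1 had a median of -0.09 and none reached 1. In the same order around Akr1c18 and Akr1c12 the median was 0.23, and 1 of the 30 reached 1. It was Emb, which encodes the adhesion molecule embigin, at 1.59 (named after its value was seen). Medians of whole chromosomes differed between the lines as well, against -0.11 over all genes tested. The median difference was -0.26 over 495 probe sets of chromosome 16, which carries Cbr1 and Cbr3. It was -0.14 over 827 of chromosome 8, which carries Nqo1, and 0.11 over 607 of chromosome 13, which carries the Akr1c genes. Chromosome 8 thus lay close to the median of all genes, which the removal below does not set apart. Over the probe sets brighter than the median of all, the median difference was -0.26 on chromosome 16, -0.07 on chromosome 8 and 0.30 on chromosome 13. The 5 genes belong to this class by their means over the 4 arrays, through their FH KO values. On both FH WT arrays all 5 lay below the array median (7.22 and 7.18), so this class may not suit them. The 3 probe sets placed on the Y chromosome had a median of -4.39, and what set the lines apart there was not tested. With the medians over all probe sets of a chromosome removed, the log2 fold changes were 2.61 for Cbr1, 1.74 for Cbr3, 3.09 for Nqo1, 3.97 for Akr1c18 and 1.13 for Akr1c12, and all 5 still passed limma (largest adjusted p = 0.017). With the medians of brighter and dimmer probe sets removed separately, a setting chosen after seeing the data, Akr1c18 had 3.78 and Akr1c12 had 0.94 (adjusted p = 0.0266 from limma).

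**Figure D3:**
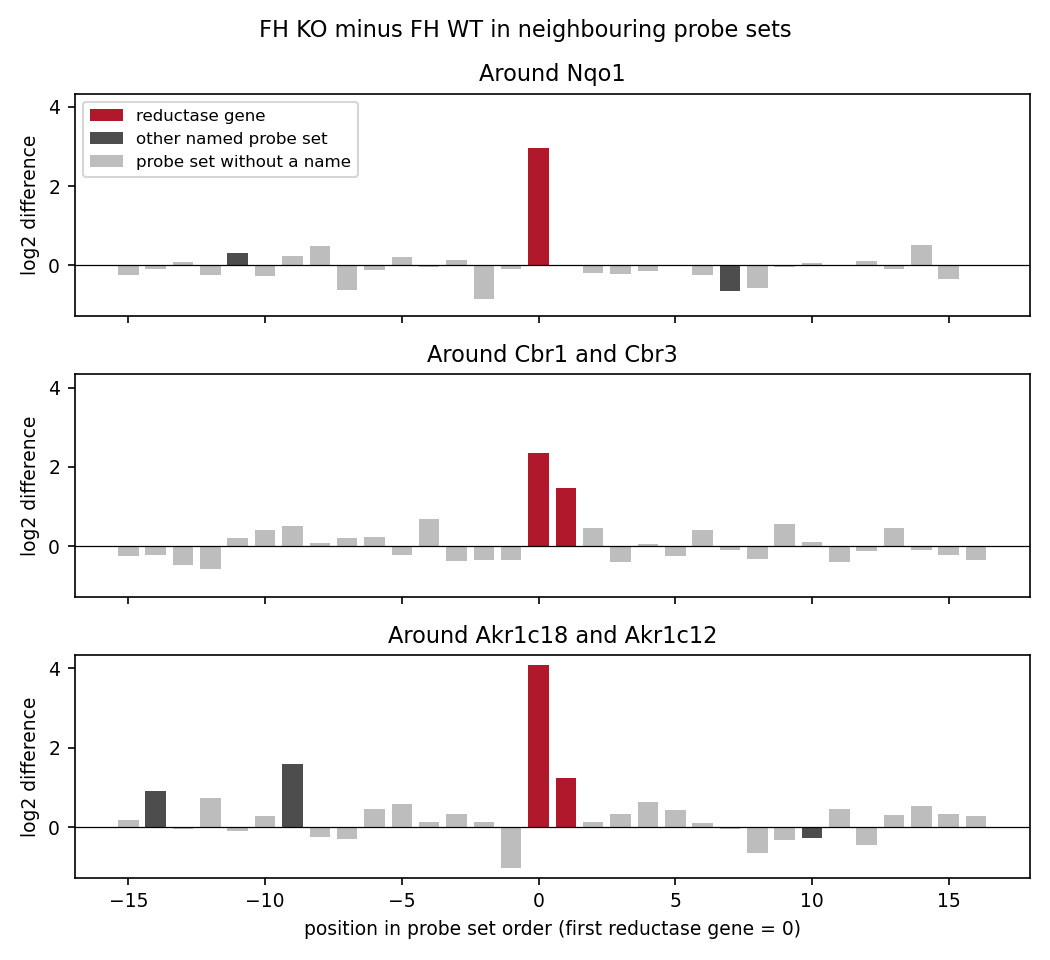
Log2 difference of FH KO minus FH WT (vertical axis) for the reductase genes (red), other named probe sets (dark grey) and probe sets without a name (light grey), by position in probe set order (horizontal axis, the first reductase gene at 0), 15 probe sets on each side. Cbr1 with 2.35 and Cbr3 with 1.48 stand as a pair between neighbours that range from -0.57 to 0.70.

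The related enzymes can be followed only where they have a name, so the counts below are of genes that had passed the authors' test already, and nothing is read from their share. Of 20 aldo-keto reductase genes, 3 have a name and 3 were higher in FH KO cells. Besides the Akr1c genes this was Akr7a5, a reductase of aldehydes, with 7.84 and 7.75 in FH KO cells against 7.10 and 7.14 in FH WT cells (log2 fold change 0.68, adjusted p = 0.0277 from limma). Of 24 short-chain reductases, 8 have a name, 7 were higher and none was lower. Dhrs9, an oxidoreductase of retinol and steroids, had 9.14 and 9.18 in FH KO cells against 6.46 and 6.26 in FH WT cells, a log2 fold change of 2.80, against 2.35 for Cbr1. Dhrs7, of the same family, had 2.51, with FH WT values of 7.07 and 6.31 that lay far apart. Rdh12, a retinal reductase, had a log2 fold change of 1.26 and Hsd17b11, a steroid dehydrogenase of lipid droplets, 0.95. Hsd17b2 did not pass, at -0.38 (adjusted p = 0.0839 from limma).

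Among 21 quinone and flavin reductases, 7 have a name, 6 were higher and none was lower. Nqo2, the paralogue of Nqo1 that uses dihydronicotinamide riboside, averaged 9.42 in FH KO cells and 9.02 in FH WT cells. Its log2 fold change of 0.40 did not pass limma (adjusted p = 0.082), and that of Nqo1 was 2.95. Blvrb, which reduces biliverdin and flavins, had 8.53 and 8.39 in FH KO cells against 6.91 and 6.83 in FH WT cells. Sqrdl, the mitochondrial sulfide quinone reductase, had a log2 fold change of 1.07. The cytochrome b5 reductase genes Cyb5r1, Cyb5r2 and Cyb5r3 had log2 fold changes of 1.04, 0.98 and 0.66. The median log2 fold change was 1.04 over the 7 named genes of this list, against 0.88 over the 665 named genes that were higher, 0.38 over the 1613 named genes and -0.11 over all genes tested.

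Of 17 genes listed under NADPH supply, 5 have a name and 5 were higher. Their log2 fold changes were 4.54 in Aldh1l2 and 1.13 in Mthfd2, both mitochondrial folate enzymes, 0.79 in Tkt and 0.64 in Taldo1, of the pentose phosphate pathway, and 0.73 in Nnt, a mitochondrial transhydrogenase. Whether any of these genes supplies the NADPH that the reductases use was not tested. Of 36 other NRF2 targets, 9 have a name, 8 were higher and none was lower. The 6 with the largest changes were Slc7a11, the cystine transporter, with a log2 fold change of 4.08, Gsta4 with 2.96, Trib3, a pseudokinase also induced through ATF4, with 2.52, Gstm4 with 2.44, Hmox1 with 2.17 and Gclc with 1.20. Gclc, the catalytic subunit of the enzyme that starts glutathione synthesis, had 10.70 and 10.40 in FH KO cells against 9.37 and 9.34 in FH WT cells. The heavy ferritin chain gene Fth1 had a log2 fold change of 0.42 and did not pass (adjusted p = 0.0729 from limma).

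**Figure D4:**
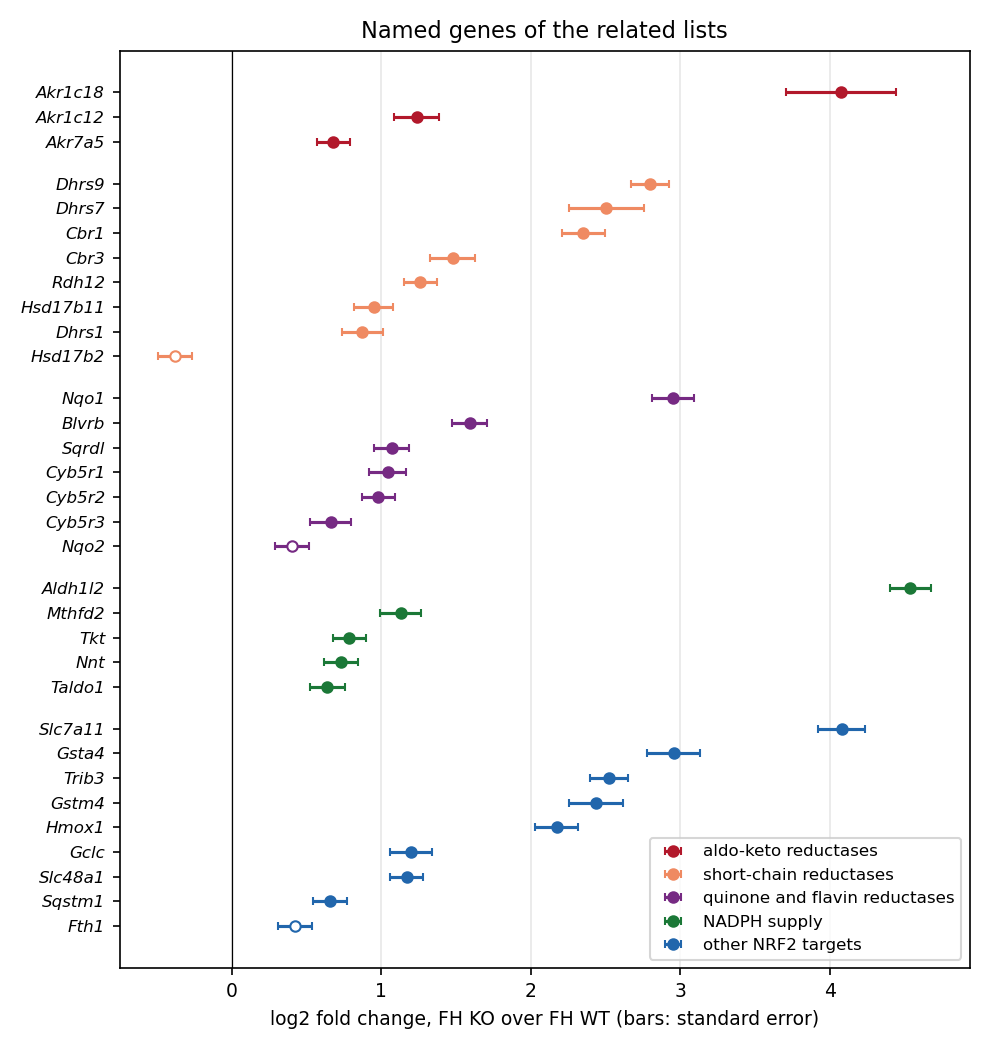
Log2 fold change of FH KO over FH WT (horizontal axis) with its standard error for each named gene of 5 related lists, given by colour, with open symbols for genes at an adjusted p of 0.05 or more. The largest values are 4.54 in Aldh1l2, 4.08 in Slc7a11 and 4.08 in Akr1c18, and Hsd17b2 alone lies below 0.

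Among the other 1612 named genes, those whose 4 values lay closest to each reductase gene, taken relative to the gene's own FH WT mean, were found by the root mean square difference. For Nqo1 they were Itm2a (0.11) and Hexa (0.12), for Cbr1 Ivd (0.03) and Eda2r (0.06), and for Cbr3 OTTMUSG00000011070 (0.01) and Fbxl20 (0.03). For Akr1c18 they were Hist1h2bc (0.13), which with 9.90 and 8.68 in FH KO cells shares the wide gap between these arrays, and Mmp13 (0.14). For Akr1c12 they were BC066028 (0.04) and Matn2 (0.05). With 4 arrays, such likeness says little more than that the differences between groups were of like size.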

How the data were processed

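Total RNA of the 4 samples was labelled with biotin and hybridised to Affymetrix whole-transcript arrays. According to the processing notes of the submitters, RMA and Partek were used with the build mm9, without versions. The values the authors deposited are log2 expression of 16755 probe sets, normalized between arrays, and were used as given. Gene names come only from the authors' deposited table of their own comparison, which holds fold changes and p-values that were not used beyond 1 check: all 1616 of its probe sets have an adjusted p-value under 0.05. Its 4 normoxia columns equal the log2 value table. In all, 12 hypoxia columns in the deposited tables match no sample described here and were not used.

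The log2 values were fitted by lmFit and eBayes of limma 3.58.1 under R 4.3.3 (genotype as the single term, 2 residual degrees of freedom and a prior of 3.447). Benjamini-Hochberg adjustment ran over 16752 genes, since genes with several probe sets kept that with the highest mean. No filter on dim probe sets was applied. The fit was tested on simulated data. Exact two-sided permutation tests used scipy 1.17.1. Alternatives were a replicate block, each array left out, quantile normalization, median centring, limma with trend and robust, the dimmest 50% of probe sets left out, removal of each chromosome's median shift and averaging of duplicate probe sets. Removal of the shift separately for brighter and dimmer probe sets was chosen after seeing the data. A probe set without a name was placed on a chromosome where both flanking named probe sets lay on the same one. Left out in turn, named probe sets were placed correctly in 1564 of 1566 cases. Of the named probe sets, 1608 were matched to RefSeq genes of GRCm38.p6.

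Members and gene lists were chosen with earlier results of these data known. Genes named in the text are the 5 reductase genes, up to 6 named genes per related list by size of change, the list genes Hsd17b2, Nqo2 and Fth1, named after seeing that they did not pass, for each reductase gene the 2 named genes with the most similar values, and Fh1. The kidney epithelium marker list is not reported here.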

Additional observations from a re-analysis of the deposited data

How the results depend on the processing

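Nqo1, Cbr1, Cbr3 and Akr1c18 kept their direction and passed limma under all 12 alternatives, with log2 fold changes of 2.81 to 3.10, 2.20 to 2.61, 1.30 to 1.74 and 3.53 to 4.63. Akr1c12 kept its direction in all and passed in 10. Leaving out single arrays gave it log2 fold changes between 1.11 and 1.36, and it did not pass without FH KO replicate 1 (1.11) or without FH WT replicate 2 (1.12). Leaving out the dimmest 50% of probe sets and averaging duplicate probe sets add nothing for these 5 genes. On both FH WT arrays all 5 lay below the array median (7.22 and 7.18). They stayed among the brighter 50% through their FH KO values. Averaging left their values unchanged. Counts of called genes were less stable than these genes. Against 1044 higher and 668 lower genes, leaving out an array gave 205 (without FH KO replicate 1) to 480 (without FH WT replicate 1) higher and 81 to 322 lower genes. Limma with trend and robust gave 1854 and 1471, and leaving out the dimmest 50% of probe sets gave 1693 and 1245. Median centring gave 1057 lower and 807 higher genes, and removal of chromosome shifts 360 lower and 1108 higher (313 and 978 with brighter and dimmer probe sets treated separately, a setting chosen after seeing the data, in which Akr1c12 had its lowest log2 fold change, 0.94); the cause was not tested. With the replicate number as a block, 1009 genes were higher and 749 lower, and the log2 fold changes of all 5 genes stayed past the test, Akr1c12 with an adjusted p of 0.0137. Deviations of same-numbered arrays correlated at 0.106 across genes, from 2 pairs, and nothing in the labels says that a number marks a shared culture or day, so the pairing was not used. Depth is not defined for arrays, and 2 arrays per group limit the precision.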

Other observations

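Some aldehyde dehydrogenases oxidise carbonyls that the reductases reduce. The named genes of that family did not move in 1 direction. Of 19 aldehyde and alcohol dehydrogenase genes, 5 have a name, 4 were higher and 1 was lower in FH KO cells at an adjusted p under 0.05. Aldh3a2, which oxidises fatty aldehydes, had 10.30 and 10.19 in FH KO cells against 9.08 and 9.16 in FH WT cells. Aldh2, the mitochondrial acetaldehyde dehydrogenase, had 12.09 and 12.07 in FH KO cells against 11.38 in both FH WT arrays. The other higher genes were Aldh1l2, with a log2 fold change of 4.54, and Aldh18a1, with 1.36. Aldh1a2, which makes retinoic acid from retinal, was the lower gene, with 8.35 and 7.92 in FH KO cells against 9.76 and 10.30 in FH WT cells (log2 fold change -1.90, adjusted p = 0.0147 from limma). The retinoid enzymes Dhrs9 and Rdh12 were higher. All of these genes had a name because the authors' test had called them.

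Of 9 regulators around NRF2, 2 have a name. Nfe2l1, the gene of the related factor NRF1, had 10.48 and 10.46 in FH KO cells against 9.42 and 9.34 in FH WT cells (log2 fold change 1.09, adjusted p = 0.00859 from limma). Sqstm1, whose protein p62 binds Keap1, had 13.02 and 12.96 in FH KO cells against 12.29 and 12.38 in FH WT cells. Nfe2l2, which encodes NRF2, and Keap1 have no name in the table and were not analysed here.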
